A study of Mus musculus with 24 samples.

Results

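NFAT transcription factors and the phosphatase calcineurin carry the calcium signal of the T cell receptor to the nucleus. The genes described here were the NFAT genes Nfatc1, Nfatc2 and Nfatc3, the catalytic calcineurin genes Ppp3ca, Ppp3cb and Ppp3cc, and Rcan1, which encodes a regulator that binds calcineurin. They were taken by gene symbol, with every probe that the array's accessions pair with them. This gave 10 probes of 7 genes, of 55681 probes and 20028 named genes on the array. Nfatc1, Nfatc2 and Nfatc3 had 2 probes each and the other 4 genes had 1 each.

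Expression was measured on 24 dual-colour Agilent arrays, each of which set T helper cells from female C57BL/6 mice (Cy3) against naive CD4+ T cells (Cy5). The arrays held Th1 cells (14 arrays) or Th2 cells (10 arrays) that had been differentiated in culture and were then left unstimulated or reactivated. The cells had received DMSO as vehicle, JQ1 at 50 or 500 nM, or flavopiridol at 1 or 10 µM. JQ1 blocks the bromodomains of BET proteins, and flavopiridol inhibits CDK9, the kinase of the elongation factor P-TEFb. Exposure was for 6 hr, with an added time point of 24 hr in Th1 cells given DMSO or 500 nM JQ1. For the Th2 DMSO arrays 1 label says 6 hr and another 24 hr, so their time is unclear. The agent used for reactivation is not given in the sources used here. Each condition had 1 array, and nothing says that the arrays came from separate mice, so p-values measure the spread between arrays, cell types and times.

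In a resting T cell, NFAT proteins are phosphorylated and held in the cytoplasm. When the T cell receptor opens calcium channels, calcineurin is activated through calmodulin and removes these phosphates, NFAT enters the nucleus, and cytokine genes such as Il2 are transcribed together with AP-1. NFAT also acts on genes of its own pathway, since inducible transcripts of Nfatc1 and of Rcan1 are known NFAT targets. Nfatc1 is transcribed from more than 1 promoter and polyadenylated at more than 1 site, so its transcripts differ at both ends.

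NFAT proteins bind the core GGAAA. The RefSeq promoter table (GRCm38.p6) lists 7 windows of 300 bases, 250 before and 50 after a transcription start, for Nfatc2, Nfatc3, Rcan1 and Ppp3cb. Rcan1 has 2 of them, and both are shown because their content of the core differs. Sequences read 5′ to 3′ on the strand of the gene, and capitals mark GGAAA or its reverse complement TTTCC.
Rcan1, upstream start, chr16:92466120-92466419 (minus strand): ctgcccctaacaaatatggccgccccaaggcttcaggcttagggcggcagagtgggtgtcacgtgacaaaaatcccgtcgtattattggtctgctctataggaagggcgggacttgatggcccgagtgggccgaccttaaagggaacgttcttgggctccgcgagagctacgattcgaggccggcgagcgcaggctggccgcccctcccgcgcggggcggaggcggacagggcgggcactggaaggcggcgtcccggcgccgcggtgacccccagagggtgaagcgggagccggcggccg
Rcan1, internal start, chr16:92400029-92400328 (minus strand): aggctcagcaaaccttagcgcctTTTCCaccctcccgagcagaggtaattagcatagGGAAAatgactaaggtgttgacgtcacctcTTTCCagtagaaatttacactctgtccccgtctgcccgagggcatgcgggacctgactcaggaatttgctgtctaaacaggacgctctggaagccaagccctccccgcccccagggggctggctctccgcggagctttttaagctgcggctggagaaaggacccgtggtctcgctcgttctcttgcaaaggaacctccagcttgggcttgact
The upstream window held 0 matches and the internal window 3. Of all 32851 windows of this length, 61.3% held at least 1 match on either strand and 9.42% held at least 3. The windows of Nfatc2 held 3 and 1 matches, those of Nfatc3 held 1 and 0, and that of Ppp3cb held 4, a number reached by 2.65% of all windows. A match describes these letters only, and the array has 1 Rcan1 probe, which was not assigned to either start.

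The labelled cell types were set against their markers. Cd3e, Cd3d, Cd3g, Cd4 and Lck were well above background on all 24 arrays. Tbx21, which encodes T-bet, had log2 ratios to naive cells of 5.41 to 6.35 on the 4 Th1 DMSO arrays, and Gata3, the Th2 factor, had 1.95 to 2.64 on the Th2 DMSO arrays against -0.52 to 0.55 on the Th1 DMSO arrays. Tbx21 had a log2 ratio of -0.02 on the unstimulated and 4.64 on the reactivated Th2 DMSO array, and Ifng had 6.20 on the latter, so the reactivated library labelled Th2 also held Th1 transcripts. The reactivated Th2 arrays with 50 and 500 nM JQ1 held them as well, with 3.34 and 0.94 for Tbx21 and 5.70 and 4.79 for Ifng, and these arrays enter the Th2 contexts of JQ1 and the pairs of Th1 against Th2. Th2 markers were found on Th1 DMSO arrays as well, with log2 ratios of up to 4.50 for Il4 and 4.60 for Il13 (up to 8.02 and 4.85 on the Th2 DMSO arrays), and of 2.42 to 6.29 for Il1rl1 against 3.47 to 3.91. Between Th1 and Th2 DMSO arrays, Tbx21, Ifng, Il12rb2, Il18rap, Gata3 and Ccr8 thus did not overlap. Cxcr3, Il4, Il5, Il13 and Il1rl1 did. On the flavopiridol arrays Tbx21 had 1.01 to 2.30 in Th1 and -0.20 to 0.86 in Th2 cells. Gata3 had -3.30 to -2.59 in Th1 and -1.13 to -0.72 in Th2 cells there, all below its Th1 DMSO values. In Cy3, 35.45 to 41.53% of probes were well above background on the 8 flavopiridol arrays and 43.83 to 52.04% on the others, with no overlap. All 10 member probes were well above background in Cy3 on all 24 arrays, except Rcan1, which was on 18.

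**Figure D1:**
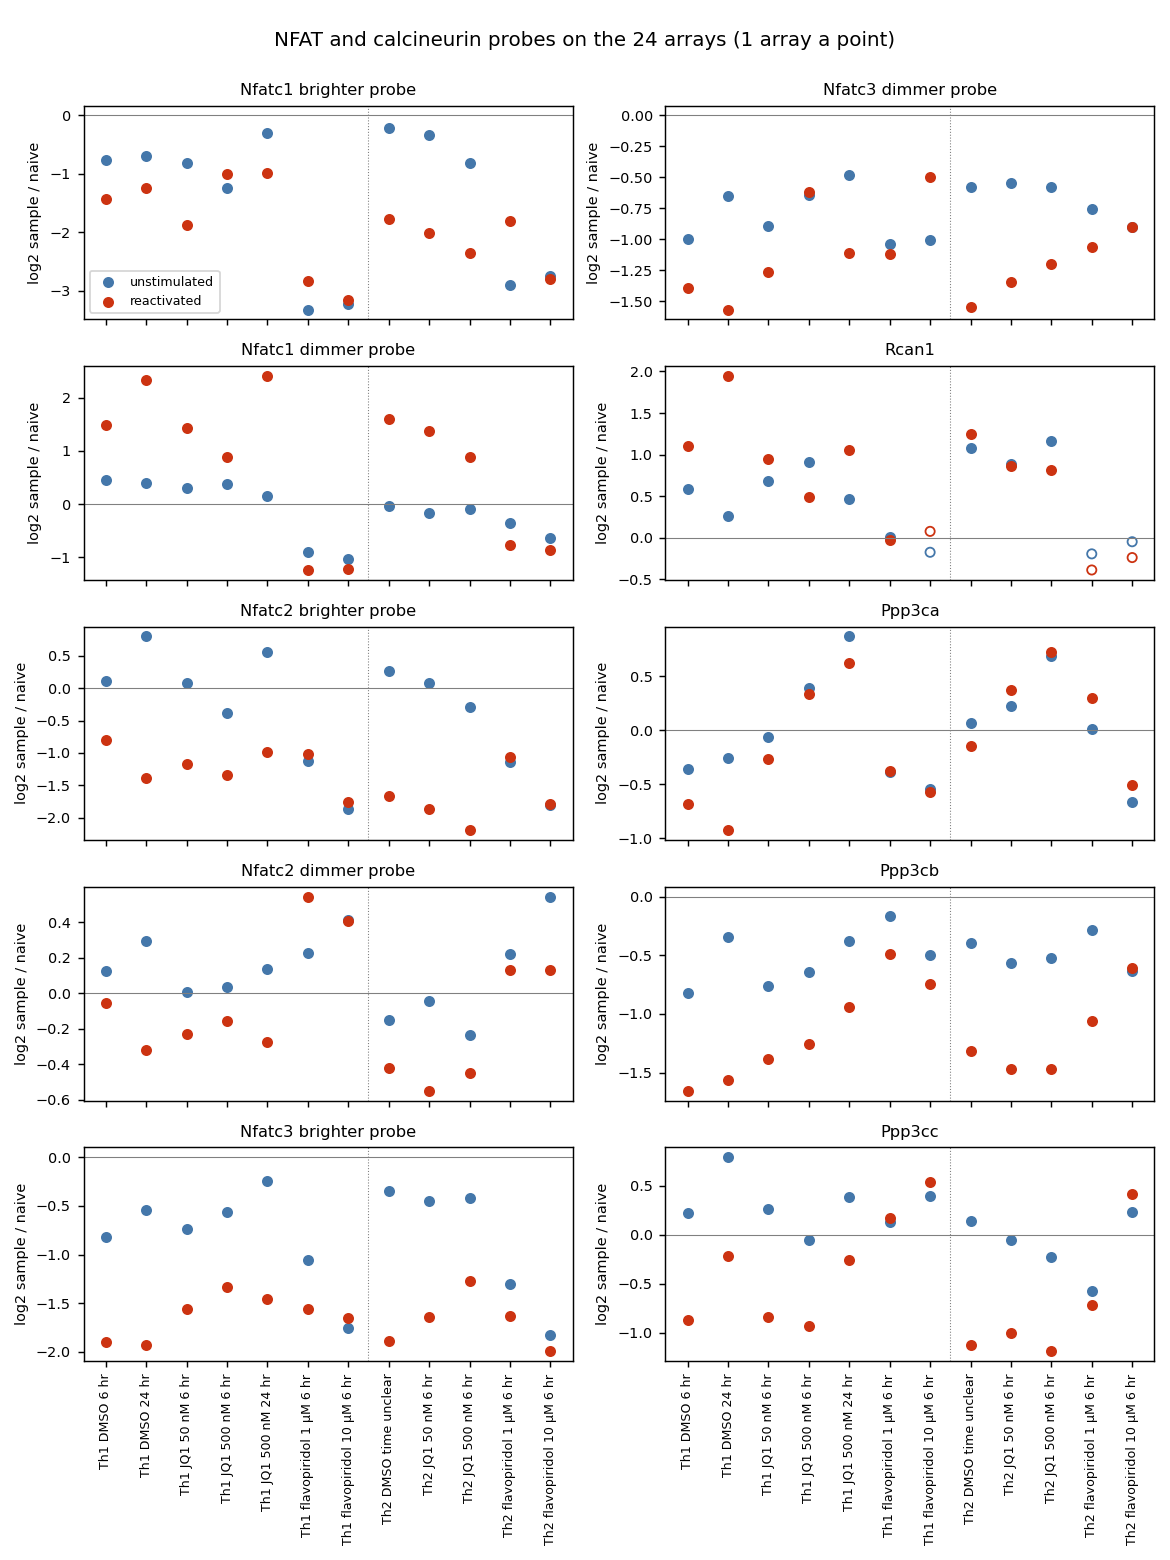
Log2 ratio of sample to naive cells (y axis) of the 10 probes on each of the 24 arrays by treatment (x axis), with blue points for unstimulated and red for reactivated cells, open points where Cy3 was not well above background, and a dotted line between Th1 and Th2. The dimmer Nfatc1 probe lies higher in reactivated cells in all 8 DMSO and JQ1 pairs and lower in all 4 flavopiridol pairs.

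Reactivation was examined on the 6 DMSO arrays, in 3 pairs of reactivated and unstimulated cells that each lay on 1 slide. The brighter Nfatc2 probe, both Nfatc3 probes and those of Ppp3cb and Ppp3cc fell, and the probes of Nfatc1 moved in opposite directions. Of the 10 probes, 1 was higher and 6 were lower at an adjusted p under 0.05, beside 18.8% higher and 22% lower of 28250 probes tested (40.9% in either direction). Without the Th2 pair, whose reactivated library held Th1 transcripts, 9 of the 10 probes were called, and without the Th1 pair of 24 hr 6 were. Of all calls, 46.1% were higher after loess and 65.5% and 66.4% with spike-in centring and a spike-in shift, under which the median of all probes was 0.19 and 0.20. The median log2 difference was -0.84 over the 10 probes and -0.02 over all probes. On these 6 arrays the summed Cy3 intensity of the CD4 T cell markers was 115280 to 150870 in unstimulated and 64134 to 85372 in reactivated cells, with no overlap, and its part in the differences was not tested. In bulk samples, fewer cells of a type and less RNA per cell cannot be told apart.

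Nfatc1 encodes the NFAT factor whose transcription rises in activated T cells. Its brighter probe had log2 ratios to naive cells of -0.76, -0.70 and -0.21 in unstimulated Th1 at 6 hr, Th1 at 24 hr and Th2 cells. In the same order, reactivated cells had -1.43, -1.25 and -1.77, all below every unstimulated value. The fitted log2 difference was -0.93 ± 0.21 (SE, adjusted p = 0.0116). The dimmer probe had 0.46, 0.40 and -0.03 in unstimulated cells and 1.49, 2.32 and 1.61 in reactivated cells, again with no overlap but in the other direction. Its fitted log2 difference was 1.53 ± 0.18 (SE, adjusted p = 0.000982). Both directions held under every scaling tried.

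The divergence of the Nfatc1 probes was then measured directly, as the change of the dimmer minus the change of the brighter probe in each pair, a contrast chosen after the values were seen and given with no test. It was positive in 8 of 8 DMSO and JQ1 pairs, with a mean of 2.31 ± 0.97 on the log2 scale (SD) and a range of 0.27 to 3.21. In the 4 flavopiridol pairs it was negative in all, with a mean of -0.69 and a range of -1.51 to -0.16. The pair closest to 0 outside flavopiridol was Th1 at 500 nM JQ1 and 6 hr, in which both probes were higher after reactivation. Over the 24 arrays the probes had a Pearson correlation of 0.47, a description over arrays that share the naive reference. The array annotates the probes to different transcripts of the gene, and where in a transcript they lie was not used here.

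**Figure D2:**
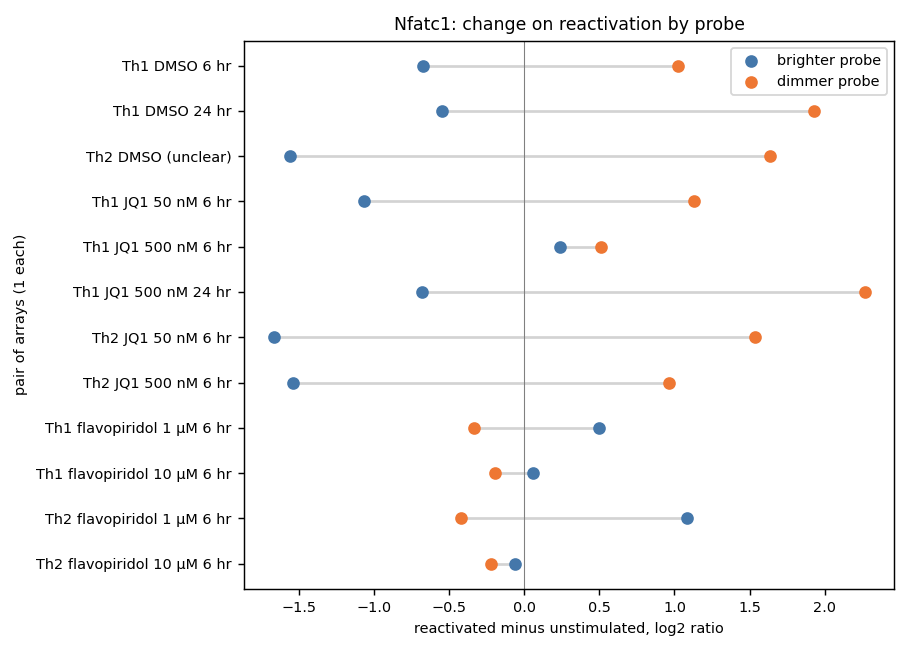
Change of the log2 ratio on reactivation (x axis) of the brighter (blue) and the dimmer (orange) Nfatc1 probe in each of 12 pairs of arrays (y axis, 1 array each), joined by a grey line. The dimmer probe lies to the right in the 8 DMSO and JQ1 pairs and to the left in the 4 flavopiridol pairs.

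Nfatc2 encodes NFAT1, the NFAT protein that is abundant in resting T cells. Its brighter probe had log2 ratios of 0.11, 0.80 and 0.27 in unstimulated Th1 at 6 hr, Th1 at 24 hr and Th2 cells, and -0.80, -1.38 and -1.67 after reactivation. All 3 reactivated values lay below the unstimulated ones, and the fitted log2 difference was -1.68 ± 0.24 (SE, adjusted p = 0.00197), a 3.2-fold lower ratio. The dimmer probe differed by -0.35 with an adjusted p of 0.0729. The probes of this gene followed each other little over the 24 arrays, with a Pearson correlation of 0.11. The dimmer probe had low signal, with log2 Cy5 intensities of 6.87 to 7.61 and log2 ratios that spanned 1.09. The part of low signal in this was not tested.

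Nfatc3 encodes NFAT4, which is also present before activation. Its brighter probe had log2 ratios of -0.82, -0.55 and -0.35 in unstimulated cells and -1.89, -1.93 and -1.89 in reactivated cells. The reactivated values lay close together and below all unstimulated values. The fitted log2 differences were -1.33 ± 0.13 (SE, adjusted p = 0.000532) at the brighter and -0.76 ± 0.15 (adjusted p = 0.00709) at the dimmer probe. Without the Th1 pair of 24 hr the dimmer probe had -0.68 with an adjusted p of 0.0544.

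Rcan1, the calcineurin regulator, had log2 ratios of 0.59, 0.26 and 1.08 in unstimulated and 1.11, 1.95 and 1.25 in reactivated cells. Each pair was higher after reactivation, by 0.52 and 1.68 in Th1 cells at 6 and 24 hr and by 0.17 in Th2 cells. The lowest reactivated value lay just above the highest unstimulated value, which was that of Th2 cells. The fitted log2 difference was 0.79 ± 0.27 (SE, adjusted p = 0.0577). Without the Th2 pair, whose time is unclear, it was 1.101 with an adjusted p of 0.00732, and without the Th1 pair of 24 hr it was 0.34 with an adjusted p of 0.203.

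Ppp3ca, Ppp3cb and Ppp3cc encode the catalytic subunit A of calcineurin in its α, β and γ forms. Ppp3cb, the form that T cells are known to depend on, had log2 ratios of -0.82, -0.34 and -0.39 in unstimulated and -1.66, -1.56 and -1.31 in reactivated cells. Ppp3cc had 0.22, 0.79 and 0.14 in unstimulated and -0.87, -0.22 and -1.12 in reactivated cells. Neither gene's states overlapped. The fitted log2 differences were -0.99 ± 0.13 (SE, adjusted p = 0.00129) for Ppp3cb and -1.12 ± 0.12 (adjusted p = 0.000627) for Ppp3cc. Ppp3ca differed by -0.40 ± 0.13 with an adjusted p of 0.0524, and by -0.49 with an adjusted p of 0.0334 without the Th2 pair. The falls of Ppp3cb and Ppp3cc and of the brighter probes of Nfatc2 and Nfatc3 held under every scaling and with each array left out in turn.

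Other genes of the pathway were read from lists, each gene by its brightest probe. Of 22 genes listed as needing NFAT for activation, a need not tested here, 19 rose and 1 fell (90.9%, beside 40.9% of all probes). Their median log2 difference was 3.35 against -0.02 over all probes. Of these genes 16 were above background on all 6 arrays, and 14 of the 16 rose and 1 fell. Among them Il3, Csf2 and Il2, which encode cytokines, rose by 7.61, 6.48 and 6.24 as log2 ratios after loess, and the transcription factor gene Egr2 by 4.72. In Cy3 alone the cytokine genes differed by more, with mean log2 intensities of 7.24, 6.80 and 7.06 in unstimulated and 17.33, 14.13 and 16.48 in reactivated cells. Ctla4, which encodes an inhibitory receptor, fell by 1.35, and Cd69 had 1.52 (adjusted p = 0.141). Il5, the other gene without a call, was above background on none of the 3 unstimulated arrays and at least 2.82-fold brighter in Cy3 in reactivated cells (adjusted p = 0.0767 in the fit on ratios). Of 20 genes of calcium entry and proximal signalling, 7 rose and 7 fell (70%). Within the calcium channel genes, Orai1 rose by 1.87 while Orai2 fell by 2.27, and the calcium sensor gene Stim1 fell by 1.45.

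Of 8 tested genes from the list of calcineurin subunit, binding and inhibitor genes (12 listed), 1 rose and 2 fell. This share of 37.5% was near the 40.9% of all probes. The gene that rose, by 1.21, was Ahcyl1, whose product binds the IP3 receptor, and Rcan3, a relative of Rcan1, fell by 1.11. Among the other NFAT genes on the array, Nfat5, the calcium-independent member of the family, rose by 1.43, while Nfatc4 and Nfatc2ip fell by 0.91 and 0.43. Of 12 genes for NFAT kinases and export factors, 2 rose and 3 fell, again near all probes at 41.7%, but 0 rose and 4 fell with median centring. The fall of 1.32 of Gsk3b, which encodes a kinase that rephosphorylates NFAT, was followed by those of Mapk9 (fell by 0.78) and Dyrk1b (fell by 0.76).

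Flavopiridol at 10 µM was compared with DMSO in 4 contexts (Th1 and Th2 cells, unstimulated and reactivated), with 1 µM in the same fit of 12 arrays. Both Nfatc1 probes, the brighter Nfatc2 probe and Rcan1 fell, and the dimmer Nfatc2 probe and Ppp3cc were higher. This made 2 probes higher and 4 lower of the 10, beside 19.9% higher and 25.5% lower of 27889 probes tested (45.4% in either direction). In the Th1 contexts alone 0 were higher and 4 lower, and the dimmer Nfatc2 probe and Ppp3cc had 0.37 (adjusted p = 0.174) and 0.79 (adjusted p = 0.164). The control of reactivated Th2 cells was the DMSO array with Th1 transcripts, whereas on the Th2 flavopiridol arrays Tbx21 had at most 0.86 and Ifng was above background on 0 of 4. No slide held both flavopiridol arrays and their DMSO controls, so slide and drug cannot be told apart within a cell type. The scaling moved the level of all probes, whose median log2 difference was -0.07 after loess, -0.67 with median centring of each array, -0.77 with a shift to the spike-in RNAs after loess and -1.29 with centring on the spike-in RNAs. Of all calls, 43.9% were higher after loess and 6.72%, 5.17% and 0.163% under these scalings. The summed Cy3 intensity of the myeloid markers was 4604 to 8563 on the 4 arrays with 10 µM and 12018 to 19183 on the 4 DMSO arrays. Itgam carried that sum, while Csf1r was brighter with 10 µM, at a log2 Cy3 intensity of 10.20 to 11.36 against 7.95 to 8.30, and Lyz2 was above background on none of these 8 arrays. Their part in the differences was not tested.

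The brighter Nfatc1 probe had log2 ratios to naive cells of -3.22, -3.16, -2.74 and -2.80 at 10 µM in unstimulated and reactivated Th1 and unstimulated and reactivated Th2 cells, against -0.76, -1.43, -0.21 and -1.77 with DMSO. The highest value with drug lay below the lowest with DMSO. Its fitted log2 difference was -1.94 ± 0.37 (SE, adjusted p = 0.00323), a 3.83-fold lower ratio. The dimmer probe had -1.03, -1.22, -0.64 and -0.86 at 10 µM against 0.46, 1.49, -0.03 and 1.61, also without overlap, and a fitted log2 difference of -1.82 ± 0.36 (SE, adjusted p = 0.00363). At 1 µM the log2 differences were -1.67 and -1.70. Each probe was called lower under every alternative in which it was tested, and the dimmer was not tested with 1 probe a gene. These alternatives included slide as a random block (adjusted p = 0.0210 and 0.0223). They also included the Th1 contexts alone, where the DMSO time is known (log2 difference -2.10 at each probe).

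Rcan1 had log2 ratios of -0.17, 0.08, -0.05 and -0.24 at 10 µM, in the same order, against 0.59, 1.11, 1.08 and 1.25 with DMSO. On none of these 4 drug arrays, and on neither Th2 array at 1 µM, was the probe well above background in Cy3. Rcan1 was therefore at least 2.07-fold lower in Cy3 level with 10 µM, from mean log2 intensities of 7.77 with DMSO and 6.73 with drug (fit on ratios: log2 difference -1.10 ± 0.16 SE, adjusted p = 0.000667). The call stood under every alternative in which Rcan1 was tested, among them the Th1 contexts alone (-0.90, adjusted p = 0.0303). Rcan1 left the test when probes had to be above background on every array.

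The brighter Nfatc2 probe had log2 ratios of -1.87, -1.76, -1.80 and -1.79 at 10 µM against 0.11, -0.80, 0.27 and -1.67 with DMSO. The drug values lay close together, and all were below the DMSO values, though the reactivated Th2 value with DMSO was close to them. The fitted log2 difference was -1.28 ± 0.33 (SE, adjusted p = 0.0123), and the adjusted p was 0.0595 with slide as a random block and 0.0574 with the scanner's log ratio. The dimmer probe differed by 0.50 ± 0.12 (SE, adjusted p = 0.00870) after loess and by -0.72 with spike-in centring and -0.10 with median centring, so its direction depended on the scaling. The call was also lost in Cy3 alone (adjusted p = 0.192).

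Of the calcineurin genes, Ppp3cc was higher by 0.80 ± 0.29 on the log2 scale (SE, adjusted p = 0.0492) after loess, and -0.46 with median centring and -1.09 with spike-in centring. That call was lost when any of 8 of the 12 arrays was left out (adjusted p up to 0.161) and with slide as a random block (adjusted p = 0.158). The arrays concerned were the reactivated DMSO arrays of Th1 and Th2, the unstimulated Th1 array at 1 µM, the reactivated Th1 array at 10 µM and all 4 Th2 flavopiridol arrays. Ppp3ca and Ppp3cb had log2 differences of -0.29 (adjusted p = 0.158) and 0.42 (adjusted p = 0.127), the latter -0.89 with median centring and -1.52 with spike-in centring. Ppp3cb was called without the unstimulated Th2 DMSO array (0.61, adjusted p = 0.0358). The Nfatc3 probes had -0.57 (adjusted p = 0.104) at the brighter and 0.30 (adjusted p = 0.229) at the dimmer probe, and the latter was -0.88 and -1.50 under the same scalings. The brighter probe was called without the reactivated Th1 DMSO array (-0.78, adjusted p = 0.0392). With 1 array left out these values ranged from 0.24 to 0.61 for Ppp3cb, from -0.78 to -0.28 for the brighter and from 0.13 to 0.46 for the dimmer Nfatc3 probe.

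At 1 µM, 1 probe was higher and 3 were lower of the 10, beside 20.9% higher and 26.7% lower of all probes (47.6% in either direction). The brighter Nfatc2 probe was lower at 10 than at 1 µM in all 4 contexts, by 0.66 to 0.75 on the log2 scale. For Nfatc1 and Rcan1 the sign of the difference between the doses varied with the context.

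In the pathway lists, 13 of the 21 tested genes listed as needing NFAT fell with 10 µM and 1 rose. That was 66.7% in all, beside 45.4% of all probes. Only 6 of the 21 were above background on all 8 arrays, and of these 4 fell and 1 rose. The median log2 difference was -2.70 against -0.07 over all probes, with genes at background taken at their measured values. Nr4a1, an early response gene, fell by 5.06. The cytokine genes Il2 and Csf2 were above background on none of the 4 drug arrays and were at least 31.7-fold and 15.0-fold dimmer in Cy3 than with DMSO. The fit on ratios gave log2 differences of -3.88 (adjusted p = 0.0285) and -3.87 (adjusted p = 0.0258), for Il2 a smaller difference than in Cy3. Il3, above background on 2 of the 4 drug arrays, had a log2 difference of -4.47. The gene that rose was Il2ra, a receptor subunit for IL-2, by 1.21 after loess but by -0.57 with spike-in centring. Of 12 kinase and export genes 7 fell and 1 rose (66.7%) after loess, while 12 fell with median or spike-in centring and 9 with a spike-in shift. Gsk3a and Mapk14 fell by 1.29 each and Dyrk1a by 0.93, and Mapk9 was higher by 0.70 after loess but -0.66 with median centring and -1.29 with spike-in centring. Of 20 calcium genes 7 fell and 3 (Atp2a3, Calm3 and Plcg1) were higher after loess (50%) but negative with spike-in centring. A spike-in shift gave 12 falls, and centring on the median or the spike-in RNAs gave 14 and 18. The falls included Orai1, which was above background on none of the drug arrays and at least 7.39-fold dimmer in Cy3 (adjusted p = 0.00115 in the fit on ratios). Of 8 tested genes from the calcineurin list 2 fell, or 25%, while with median centring 6 fell and 2 rose. The regulatory calcineurin subunit gene Ppp3r1 fell by 0.93. Nfat5 and Nfatc2ip fell by 0.88 and 0.86, and Nfatc4 was higher by 1.95 after loess and -0.01 with spike-in centring.

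**Figure D3:**
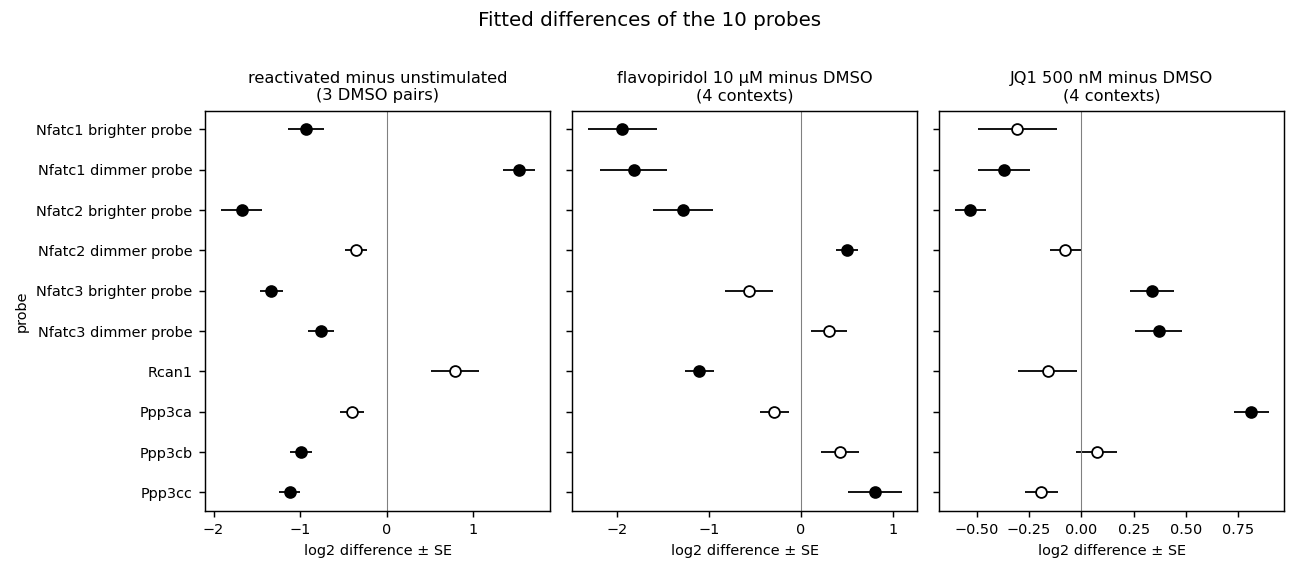
Fitted log2 differences (x axis, with SE as bars) of the 10 probes (y axis) after loess for reactivation in 3 DMSO pairs (left), 10 µM flavopiridol (middle) and 500 nM JQ1 (right) in 4 contexts each, with filled points at an adjusted p under 0.05. The filled points right of 0 for flavopiridol turn negative with spike-in centring, as do those of Nfatc3 for JQ1, while the filled points left of 0, that of Nfatc1 for reactivation and that of Ppp3ca for JQ1 keep their side under all scalings.

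JQ1 was compared with DMSO in the same 4 contexts. At 500 nM Ppp3ca and Nfatc3 were higher after loess, and the brighter Nfatc2 and the dimmer Nfatc1 probe were lower. Of the 10 probes, 3 were higher and 2 lower, beside 15.7% higher and 21% lower of 29769 probes tested (36.7% in either direction). Of all calls, 42.8% were higher after loess and 12.9%, 2.82% and 3.31% with median centring, spike-in centring and a spike-in shift. At 50 nM limma called 0 of 10 probes, beside 0.148% of all probes (0.104% higher, 0.0437% lower), and 3104 of all probes and 2 of the 10 had an unadjusted p under 0.05. The summed CD4 T cell markers had Cy3 intensities of 38922 to 71473 with 500 nM and 64134 to 124180 with DMSO, and their part in the differences was not tested.

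Ppp3ca, the α form of the catalytic subunit, had log2 ratios of 0.39, 0.33, 0.68 and 0.72 at 500 nM in unstimulated and reactivated Th1 and unstimulated and reactivated Th2 cells, against -0.36, -0.68, 0.06 and -0.15 with DMSO. All values with drug lay above all values with DMSO, by 0.75, 1.02, 0.62 and 0.87 within contexts. The fitted log2 difference was 0.81 ± 0.08 (SE, adjusted p = 3.35e-05), a 1.76-fold higher ratio. In Th1 cells alone, where drug and DMSO shared a slide, it was 0.88 with an adjusted p of 0.00955. At 50 nM it was 0.35 with an adjusted p of 0.140, and all 4 contexts were higher at 500 than at 50 nM.

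The call of Ppp3ca stood with each array left out in turn, with a log2 difference of 0.76 to 0.88. The direction held under all scalings, but the value was 0.24 (adjusted p = 0.450) with spike-in centring and 0.37 (adjusted p = 0.310) with a spike-in shift, under which the median of all probes was -0.40 and -0.46. In the Th1 pairs of 24 hr, which entered no test, Ppp3ca was higher with 500 nM by 1.13 in unstimulated and by 1.55 in reactivated cells.

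The brighter Nfatc2 probe had log2 ratios of -0.38, -1.34, -0.29 and -2.19 at 500 nM against 0.11, -0.80, 0.27 and -1.67 with DMSO. The groups overlapped, but each context fell, by 0.49 to 0.56. The fitted log2 difference was -0.53 ± 0.07 (SE, adjusted p = 0.000275), and it was -0.51 with an adjusted p of 0.0521 in Th1 cells alone. At 24 hr the differences were -0.25 in unstimulated and 0.39 in reactivated Th1 cells, with 1 array each.

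The dimmer Nfatc1 probe differed by -0.37 ± 0.12 on the log2 scale (SE, adjusted p = 0.0354) and the brighter by -0.31 (adjusted p = 0.233), though by -0.59 (adjusted p = 0.000593) without the reactivated 500 nM array of Th1 at 6 hr. The Nfatc3 probes were higher by 0.34 ± 0.11 (adjusted p = 0.0271) and 0.37 ± 0.11 (adjusted p = 0.0235), but -0.21 and -0.14 with spike-in centring. These calls were lost without single arrays. Without the reactivated DMSO array of Th1 at 6 hr or of Th2, 2 probes were called, and without the reactivated 500 nM array of Th1 at 6 hr or of Th2, 3 were. Rcan1, Ppp3cb and Ppp3cc had log2 differences of -0.16, 0.07 and -0.19, none past the threshold.

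Of the 22 genes listed as needing NFAT, 16 fell with 500 nM JQ1 and 0 rose (72.7%, beside 36.7% of all probes). Their median log2 difference was -0.59 against -0.02 over all probes, and 8 fell with the scanner's log ratio. Of the 12 genes above background on all 8 arrays, 8 fell. Fasl, which encodes a death ligand, fell by 2.16, and the cytokine gene Il21, above background on 3 of 4 drug arrays, fell by 2.07. Il13 and Il4, with log2 differences of -1.23 each, were above background on 2 and 3 of the 4 drug arrays and on 3 of the 4 DMSO arrays. Of 20 calcium genes 7 were higher and 4 lower (55%) after loess, but 2 and 9 with median centring, 0 and 8 with spike-in centring and 0 and 4 with a spike-in shift. The channel gene Kcnn4 fell by 1.101, and Itpr1, an IP3 receptor gene, was higher by 0.98. Of the calcineurin list, Chp1 and Ppp3r1 were higher by 0.40 and 0.24, but -0.14 and -0.33 with spike-in centring, and Nfat5 and Nfatc2ip were each higher by 0.42, but -0.08 and -0.14. Of 12 kinase and export genes 3 were higher and 3 lower after loess, but 1 and 5 with median centring and 0 and 3 with spike-in centring or a spike-in shift. The stress kinase gene Mapk14 was higher by 0.90, while the other 2 higher genes turned negative with spike-in centring.

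The drugs were also compared with each other over the 4 contexts, without DMSO arrays, 10 µM flavopiridol against 500 nM JQ1. The doses are each drug's own and do not match. In no context did the arrays of both drugs share a slide, so slide and drug cannot be told apart within a context. Of the 10 probes, 2 were higher and 5 lower with flavopiridol, beside 20.8% higher and 24.8% lower of 25933 probes tested (45.6% in either direction). The summed CD4 T cell markers had Cy3 intensities of 96036 to 108230 with flavopiridol and 38922 to 71473 with JQ1. The myeloid markers had 4604 to 8563 and 10726 to 16498, and the CD8 T cell markers 285 to 624 and 148 to 222. None of these overlapped, and their part in the differences was not tested. Itgam carried the myeloid sum, while Csf1r went the other way. Csf1r had log2 Cy3 intensities of 10.20 to 11.36 on the flavopiridol and 8.28 to 9.21 on the JQ1 arrays, all doses and times included. The Nfatc1 probes were lower by -1.63 (adjusted p = 0.00782) and -1.45 (adjusted p = 0.00724) as log2 differences. Rcan1, above background on none of the 4 flavopiridol arrays, was at least 1.89-fold lower in Cy3 level than with JQ1 (adjusted p = 0.00747 in the fit on ratios). Ppp3ca differed by -1.10 ± 0.14 (SE, adjusted p = 0.00231) and the brighter Nfatc3 probe by -0.91 (adjusted p = 0.0163). The dimmer Nfatc2 probe and Ppp3cc were higher by 0.57 and 0.99 after loess, but -0.34 each with spike-in centring. The brighter Nfatc2 probe had -0.75 with an adjusted p of 0.126, which does not show that the drugs act alike on it, and -1.14 without the reactivated Th2 array of either drug (adjusted p = 0.0212 and 0.0221). The calls of the dimmer Nfatc2 probe, of Ppp3cc and of the brighter Nfatc3 probe were each lost with any of 4 of the 8 arrays left out, at adjusted p values up to 0.0681, 0.0788 and 0.0687, and those of Nfatc1, Rcan1 and Ppp3ca with none.

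Whether the effect of 10 µM flavopiridol differed between reactivated and unstimulated cells was tested with an interaction term. It passed the threshold for 5 of the 10 probes, 4 with a higher and 1 with a lower difference in reactivated cells, beside 5.69% and 5.12% of 27889 probes (10.8% in either direction). The dimmer Nfatc1 probe differed by -1.05 in unstimulated and by -2.59 in reactivated cells, an interaction of -1.54 ± 0.35 (SE, adjusted p = 0.0344). The brighter Nfatc2 probe went the other way, with -2.02 and -0.54 and an interaction of 1.48 ± 0.31 (adjusted p = 0.0257). At the level of single arrays, the brighter Nfatc2 probe changed on reactivation by 0.01 to 0.11 in the 4 flavopiridol pairs and by -0.91 to -2.18 in the DMSO pairs.

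The brighter Nfatc3 probe had log2 differences of -1.21 in unstimulated and 0.07 in reactivated cells (interaction 1.27, adjusted p = 0.0310), the dimmer -0.17 and 0.77 (0.94, adjusted p = 0.0436), and Ppp3cc 0.13 and 1.47 (1.34, adjusted p = 0.0430). These 5 interaction calls were not stable: 0 to 3 were made with any of the 12 arrays left out, 0 with spike-in centring or the scanner's log ratio, and 3 with the authors' table. All 5 kept their sign under every setting in which they were tested. The brighter Nfatc1 probe gained a call (1.63, adjusted p = 0.0106) without the reactivated Th1 DMSO array. Within unstimulated cells 37.8% of all probes were called (15.3% higher, 22.4% lower), with 1 higher and 5 lower of the 10. Within reactivated cells 44.3% were called (20.2% higher, 24.1% lower), with 4 higher and 3 lower of the 10.

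The interaction of 500 nM JQ1 with reactivation passed the threshold for 2 of the 10 probes, both lower, beside 3.73% lower and 2.71% higher of 29769 probes (6.45% in either direction). The dimmer Nfatc1 probe differed by -0.07 in unstimulated and by -0.66 in reactivated cells (interaction -0.59 ± 0.14 SE, adjusted p = 0.0341). Rcan1 differed by 0.20 and -0.53 (interaction -0.73 ± 0.17 SE, adjusted p = 0.0342). For Rcan1 the single contexts gave 0.33 and 0.08 in unstimulated Th1 and Th2 cells and -0.62 and -0.44 in reactivated cells, and in Th1 cells at 24 hr 0.20 and -0.89. The call of Nfatc1 was lost with any of the 12 arrays left out (adjusted p up to 0.161), and that of Rcan1 with any of 9 arrays (adjusted p up to 0.138), all but the reactivated 50 nM arrays and the reactivated Th2 array at 500 nM. Both were lost without background correction (adjusted p = 0.0842 and 0.0849). The brighter Nfatc1 probe gained a call in the other direction (1.02, adjusted p = 0.00832) without the reactivated Th2 array at 500 nM, but over all arrays it turned negative with spike-in centring. Ppp3ca was higher with JQ1 in both states, by 0.68 and 0.94. Within unstimulated cells 27.8% of all probes were called (12.1% higher, 15.7% lower), with 1 higher and 2 lower of the 10. Within reactivated cells 34.6% were called (14.2% higher, 20.5% lower), with 3 higher and 3 lower.

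**Figure D4:**
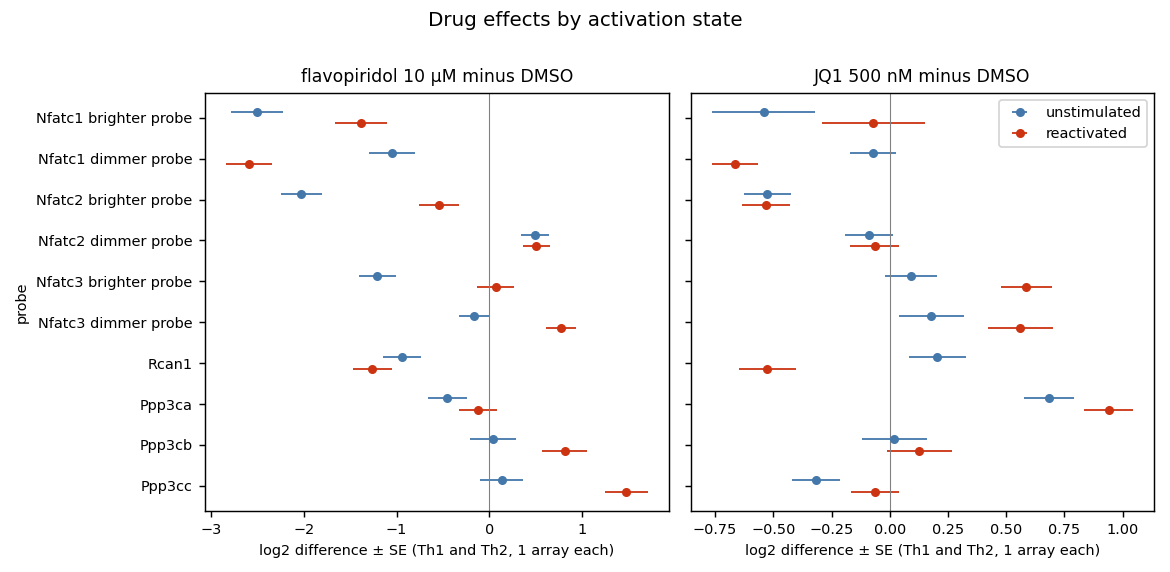
Log2 difference of drug minus DMSO after loess (x axis, with SE as bars, Th1 and Th2 with 1 array each) of the 10 probes (y axis) in unstimulated (blue) and reactivated (red) cells, for 10 µM flavopiridol (left) and 500 nM JQ1 (right). The dimmer Nfatc1 probe lies further left in reactivated cells with both drugs (-2.59 against -1.05 and -0.66 against -0.07), and the brighter Nfatc2 probe further left in unstimulated cells with flavopiridol (-2.02 against -0.54).

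Th1 and Th2 cells were compared in 6 pairs matched for treatment and state (DMSO and both doses of JQ1). Of the 10 probes, 2 were higher and 1 lower in Th1 cells, beside 11.2% higher and 12% lower of 29769 probes (23.2% in either direction), so the share of members called was near that of all probes. Ppp3ca was lower in Th1 cells in 6 of 6 pairs, by 0.28 to 0.63, with a fitted log2 difference of -0.43 ± 0.07 (SE, adjusted p = 0.00257). It was called with each array left out in turn. The adjusted p was 0.0359 in the 4 JQ1 pairs alone, 0.265 in the 2 DMSO pairs alone and 0.0704 with a spike-in shift. Only the DMSO pairs shared a slide, so slide and cell type cannot be told apart in the 4 JQ1 pairs. The dimmer Nfatc2 probe and Ppp3cc were higher in Th1 cells by 0.26 (adjusted p = 0.0178) and 0.21 (adjusted p = 0.0345). The call of Ppp3cc was lost with any of 10 of the 12 arrays left out, all but the unstimulated DMSO arrays (adjusted p up to 0.104), and that of Nfatc2 with any of the 4 reactivated DMSO and 50 nM arrays (adjusted p up to 0.0542). Without the reactivated DMSO array of Th1 or of Th2 cells, 1 probe was called. Rcan1 had -0.22 (adjusted p = 0.0725), and -0.28 (adjusted p = 0.0394) without the reactivated 50 nM array of either cell type. The summed B cell markers were 598 to 1407 in Cy3 intensity on these Th1 arrays and 2105 to 4732 on the Th2 arrays, with no overlap, and their part in the differences was not tested.

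Against naive cells, the 3 unstimulated DMSO arrays had 1 probe higher and 4 lower of the 10 after loess, but 5 higher and 0 lower with spike-in centring, 5 higher and 1 lower with a spike-in shift and 0 higher and 6 lower with median centring. The counts after loess stood beside 28.3% higher and 25.8% lower of 28250 probes (54.1% in either direction). The level of all probes also moved with the scaling. With spike-in centring Ppp3cb had 0.03, or -0.70 relative to the median of all probes. With median centring the dimmer Nfatc2 probe had -0.28, or 0.04 relative to that median. The naive RNA was the Cy5 channel of every array and the dyes were not swapped, so these ratios hold no spread between naive samples and are open to dye bias. The lower probes were both of Nfatc3 (-0.57 and -0.74, adjusted p = 0.00275 and 0.000863), the brighter of Nfatc1 (-0.55, adjusted p = 0.0133) and Ppp3cb (-0.52, adjusted p = 0.00874). With spike-in centring these values were -0.02, -0.16, -0.04 and 0.03. Rcan1 was higher by 0.64 (adjusted p = 0.0283), and without the Th2 arrays by 0.43 (adjusted p = 0.107). Without the unstimulated Th1 DMSO array of 6 hr, 3 of the 10 probes were called. In the 3 reactivated DMSO arrays 2 probes were higher and 7 lower, beside 34.8% and 31.6% of all probes (66.4% in either direction), and the exception was the dimmer Nfatc2 probe.

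Th1 cells had arrays at 6 and 24 hr on different slides, with 1 array each and no test. At 24 hr the dimmer Nfatc1 probe was higher in reactivated cells, by 0.84 with DMSO and by 1.53 with 500 nM JQ1, but by -0.06 and -0.23 in unstimulated cells. Rcan1 had the same split, with 0.84 and 0.57 in reactivated and -0.32 and -0.45 in unstimulated cells. Ppp3cc was higher at 24 hr in all 4 comparisons, by 0.44 to 0.66, and slide and time cannot be told apart.

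Across the 24 arrays, the dimmer Nfatc1 probe and Rcan1 had log2 ratios with a Pearson correlation of 0.81, and the brighter probes of Nfatc2 and Nfatc3 of 0.84. That Nfatc1 probe ran against Ppp3cb (-0.72) and the dimmer Nfatc2 probe (-0.79). Ppp3cb and Ppp3cc had 0.75. These are descriptions over 24 arrays that share a reference and fall into treatment groups. Among 11815 candidate genes, the patterns closest to each gene's brightest probe over the 24 arrays were those of Ddx17, B4galt1 and Plec for Nfatc1 (Pearson r of 0.94 each), of Mbd2 (0.93) for Nfatc2, of Reep1 (0.97) for Nfatc3, of Net1 (0.92) for Rcan1, of Fam71e1 (0.91) for Ppp3ca, of Ablim1 (0.94) for Ppp3cb and of Rinl (0.90) for Ppp3cc.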

How the data were processed

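RNA of T helper cells (Cy3) and of naive CD4+CD62L+CD25-CD44lo T cells from lymph node and spleen (Cy5, dyes not swapped) was amplified with a low-input kit and hybridised to 24 arrays on 3 slides of 8. The cells were cultured under Th1 or Th2 conditions. Per the file headers the arrays were read with Agilent Feature Extraction 10.7.1.1, with a grid of build mm9. The deposited scanner files hold median pixel intensity and local background in each channel and a log10 ratio of Cy5 over Cy3. A second deposited table holds log2 ratios by the authors for 34710 of 55681 probes, whose normalization is not given in the sources used here (r with the ratios below 0.981 to 0.996).

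Median intensities were corrected by normexp (offset 50) and loess-normalized within each array, with control spots and flagged spots (234 to 331 per array) left out, and expressed as log2 of Cy3 over Cy5. Each slide held both states of a condition together. No slide held flavopiridol and its control, and Th1 but not Th2 JQ1 arrays shared a slide with theirs. Of all probes 26437 were named through RefSeq accessions, to 20028 genes, and 29244 were not. Each probe was fitted with limma 3.58.1 (R 4.3.3; lmFit and eBayes, pair or context as a block), with Benjamini-Hochberg adjustment over all probes well above background in Cy3 on at least 3 arrays of the fit, and called at an adjusted p under 0.05. "Brighter" and "dimmer" rank the probes of a gene by mean intensity, and no probe's level was set against another's. The Th2 DMSO arrays, labelled 24 hr in titles and 6 hr in source names, served as controls of 6 hr Th2 cells. For a listed gene above background on no array of a group, the fold is a bound, set against the lowest signal well above background on each array or the probe's own signal if higher. Arrays number 1 per condition, which limits the precision. Fits were tested on simulated data.

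The text names every probe of the 7 genes, the 3 genes with the most similar pattern at most, and from each pathway list at most the 4 largest changes among those called. Ctla4, Il5, Cd69, Il2ra, Mapk9, Ppp3r1, Atp2a3, Calm3 and Plcg1 were named beyond this, after their values were seen, where a small count turned on them. Some genes of the lists are not reported here by name. The members, lists and tests were chosen with earlier results of these data known. Alternatives changed the background correction, scaling, channel, source of values, filter, probes of a gene, slide or block, dose and arrays.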

Additional observations from a re-analysis of the deposited data

Results flagged for a closer look

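The effect of a drug differed between reactivated and unstimulated cells, by the limma interaction term after loess, at 7 probe and drug combinations. With 10 µM flavopiridol the effect in reactivated minus that in unstimulated cells was -1.54 on the log2 scale at the dimmer Nfatc1 probe, 1.48 at the brighter Nfatc2 probe, 1.27 and 0.94 at the brighter and dimmer Nfatc3 probes and 1.34 at Ppp3cc. With 500 nM JQ1 it was -0.59 at the dimmer Nfatc1 probe and -0.73 at Rcan1. The DMSO arrays are shared by both drugs, so these values are not independent of each other. The calls were not stable. With each array left out in turn, 0 to 3 of the 10 probes were called for flavopiridol and 0 to 2 for JQ1. With spike-in centring none of the flavopiridol calls remained.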

How the results depend on the processing

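Of 1823 member values under all alternatives, 1514 kept their side of the threshold, 221 lost and 56 gained a call, and 32 reversed. A value counted as reversed only if its direction changed and the main fit or the alternative called it. Values called in neither could change direction among the 1514, as the brighter Nfatc1 probe did between Th1 and Th2 (-0.19 to 0.18). The cause was not tested in any case. The count of members called on reactivation was 6 to 9 of 10 under every alternative but 1 probe a gene, with 5 of 7. With 10 µM flavopiridol it went from 6 to 10 with spike-in centring, which also lowered the level of all probes. With 500 nM JQ1 it went from 5 to 2 with a spike-in shift, 3 with 1 probe a gene, 1 without the context block, 2 with 500 nM and DMSO arrays only, 0 at 50 nM and 2 in Th1 contexts only. Flavopiridol against JQ1 went from 7 to 3 with a spike-in shift. The interaction of flavopiridol went from 5 to 3 without background correction, 1 with median centring, 0 with spike-in centring, a spike-in shift or the scanner's ratio, and 3 with Cy3 alone, the authors' table, no filter or 1 probe a gene. That of JQ1 went from 2 to 0 without background correction or with the scanner's ratio, and to 1 with median centring or 1 probe a gene. It went to 8 with spike-in centring and 10 with a spike-in shift, which also lowered the level of all probes. With these scalings the brighter Nfatc1 probe had -0.66 and -0.70 but lay 0.28 and 0.48 above the median of all probes. Th1 against Th2 went from 3 to 1 with median or spike-in centring or the 4 JQ1 pairs, and to 0 with a spike-in shift, no pair block or the 2 DMSO pairs. Effector against naive cells went from 5 to 9 in reactivated arrays. With each array left out in turn the counts were 6 to 9 for reactivation, 5 to 7 for flavopiridol, 2 to 5 for JQ1, 5 to 7 between the drugs, 0 to 3 and 0 to 2 for the interactions of flavopiridol and JQ1, 1 to 3 for Th1 against Th2 and 3 to 5 against naive cells.

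The values counted as reversed, all log2 differences, were these. With flavopiridol, median centring gave -0.10 at the dimmer Nfatc2 probe, -0.88 at the dimmer Nfatc3 probe, -0.89 at Ppp3cb and -0.46 at Ppp3cc. Spike-in centring gave -0.72, -1.50, -1.52 and -1.09, and a spike-in shift gave -0.21 at the dimmer Nfatc2 probe. With JQ1, spike-in centring gave -0.21 and -0.14 and the shift -0.10 and -0.073 at the brighter and dimmer Nfatc3 probes. Between the drugs, spike-in centring gave -0.34 at the dimmer Nfatc2 probe, -1.03 at Ppp3cb and -0.34 at Ppp3cc. In the interaction of JQ1, spike-in centring gave -0.66 at the brighter Nfatc1 probe, -0.84 at the dimmer Nfatc2 probe, -0.85 at Ppp3ca, -0.97 at Ppp3cb and -0.83 at Ppp3cc, and the shift -0.70, -1.14, -0.91, -1.06 and -0.91, with -0.67 and -0.79 at the Nfatc3 probes. Against naive cells, median centring gave -0.28 at the dimmer Nfatc2 probe, spike-in centring 0.027 at Ppp3cb, and reactivated arrays -1.28 at the brighter Nfatc2 probe and -0.74 at Ppp3cc. Of all calls, the share that was higher went from 45.6% to 1.86% between the drugs, from 52.6% to 28.1% and from 42.1% to 0.119% in the interactions, and from 52.3% to 90.5% against naive cells with spike-in centring, and from 48.2% to 30.4% between Th1 and Th2 with median centring. Slide as a random block was not run for reactivation, whose pairs each lay on 1 slide. The labels give no replicate numbers, so none served as a block, while matched pairs of conditions were the block for reactivation and for Th1 against Th2. Rcan1, near background on 6 of the 24 arrays, is the member that signal limits most.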
